A study of Mus musculus with 6 samples.

Results

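The genes described here encode the machinery that copies the genome, together with 4 regulators of entry into S phase, measured by bulk RNA-seq in mouse leukemia carrying MLL-AF9, an oncogenic fusion protein of MLL with AF9. The 41 genes were chosen by name from the 56748 genes of the deposited count table, and all 41 had enough counts to be among the 15963 genes tested. They were 12 genes of origin licensing, 6 of helicase activation, 8 of DNA polymerases and primase, 6 of the sliding clamp and its loader, 5 of single-strand binding and Okazaki fragment joining, and the regulators Ccne1, Ccne2, E2f1 and E2f2. The libraries were 3 labelled Rbm5 KO, numbered 31, 32 and 40, and 3 labelled Rbm5 WT, numbered 25, 27 and 29, all with MLL-AF9 and all described as whole bone marrow. The study was designed to ask how RBM5, an RNA-binding protein of the splicing machinery, affects the gene program of these leukemias. The labels give neither the allele or Cre of the knockout, nor the age or sex of the animals, nor whether a library stands for 1 animal, and the extraction protocol speaks of whole bone marrow in 1 passage and of cultured cells in another. P-values therefore measure only the spread between these libraries.

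In each cell cycle the origin recognition complex, with CDC6 and CDT1, loads the MCM2-7 helicase onto origins of replication during G1. CDC45, the GINS complex and MCM10 turn the loaded helicase into an active one when S phase begins. Polymerase alpha with primase starts each strand, polymerases delta and epsilon extend it, the clamp PCNA is loaded by the RFC complex and holds them on DNA, RPA coats the single strands, and FEN1 and LIG1 process and join Okazaki fragments. Many of these genes are transcribed in late G1 under E2F factors, which the RB proteins hold in check until cyclin D and cyclin E kinases phosphorylate RB. In leukemia as in other tumours, the RNA of replication genes is commonly read as a sign of cycling cells.

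Total counts were between 26359299 and 27638075 in the knockout libraries and between 27140474 and 31807588 in the wild-type libraries. Rbm5 itself had 269, 267 and 245 counts scaled to library size (CPM) in knockout libraries 31, 32 and 40, against 227, 214 and 174 CPM in wild-type libraries 25, 27 and 29. The total RNA of the targeted gene was thus not lower in the libraries labelled knockout (log2 fold change 0.34, 95% interval 0.08 to 0.61, edgeR adjusted p = 0.107). Counts per gene do not show whether part of the transcript or the protein was lost, and the allele is not given. The words "knockout" and "wild-type" therefore stand for labels throughout. The Y-linked gene Ddx3y had 2645, 2674 and 3311 counts in the knockout libraries and 0 in each wild-type library, so sex and label cannot be told apart. The mature neutrophil markers summed to between 9640 and 17136 CPM in knockout libraries, against between 652 and 2435 CPM in wild-type libraries. All 12 were higher in every knockout library than in any wild-type library (17.2% of all genes tested were). Of the 12, 8 passed the test as higher (5.45% of all genes tested), and none was at 0 in all libraries. Monocyte and macrophage markers summed to between 2445 and 4436 CPM in knockout libraries and between 737 and 1380 CPM in wild-type libraries. Of these 9 markers, 2 passed the test, both as higher (22.2%, against 5.45% of all genes tested). The 6 MLL leukemia markers, Hoxa9, Hoxa10, Meis1, Myb, Kit and Flt3, were detected, at a summed 919 to 1227 CPM in knockout libraries and 1299 to 1783 CPM in wild-type libraries. Of these 6, 1 passed the test, Hoxa9, as lower (16.7%, against 3.12% of all genes tested). All 6 log2 fold changes lay below 0, as did 51.2% of those of all genes tested. The part of these markers in the results below was not tested, and in bulk RNA fewer cells of a type and less RNA per cell cannot be told apart.

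Of the 41 replication genes, 1 rose in the knockout libraries, E2f2, and none fell, at an adjusted p of at most 0.05 in edgeR's quasi-likelihood test over all genes. That is 2.44% of them, against 8.57% of all genes tested, of which 5.45% were higher and 3.12% lower. Over all genes that split was 870 higher and 498 lower, and scaling by total counts alone turned it to 597 higher and 682 lower, with E2f2 still the single replication gene called. Their median log2 fold change was -0.07, beside -0.01 over all genes tested, and 27 of the 41 lay below 0 (65.9%, against 51.2% of all genes). At an unadjusted p under 0.05, 7 of them were lower (17.1%, against 12.4% of all genes) and 2 higher (4.88%, against 14.5%), 22% in all, against 26.9% of all genes. Most estimates were tight: the 95% interval of the fold change lay within 1.5-fold in either direction for 27 genes (65.9%, against 33.9% of all genes) and within 2-fold for 40 genes (97.6%, against 56.6%). The remaining gene was E2f2. The shares over all genes were not matched for expression level, and genes with few counts have wider intervals. A miss of the threshold does not show that a gene was equal in both groups, but these intervals bound how far most of the machinery genes could differ at this depth.

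**Figure D1:**
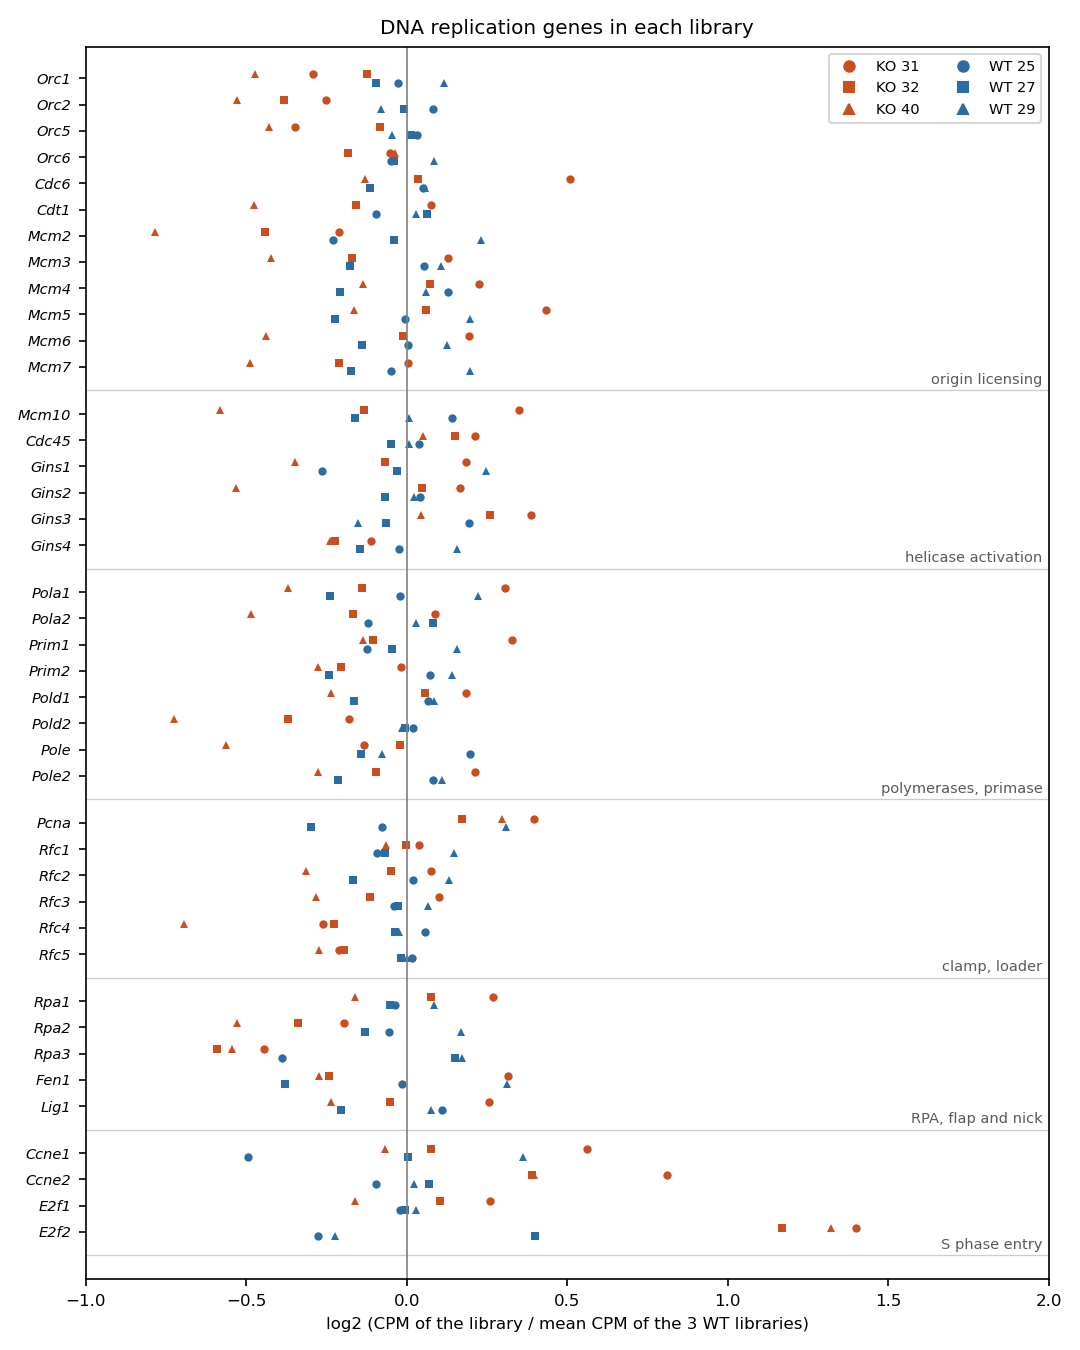
Level of each replication gene in each library, as the log2 ratio of its CPM to the mean CPM of the 3 wild-type libraries, with knockout libraries in orange and wild-type libraries in blue and genes grouped by role. E2f2 is the gene whose 3 knockout libraries stand far to the right, and knockout library 40 lies left of the other libraries in 29 of the 41 genes.

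**Figure D2:**
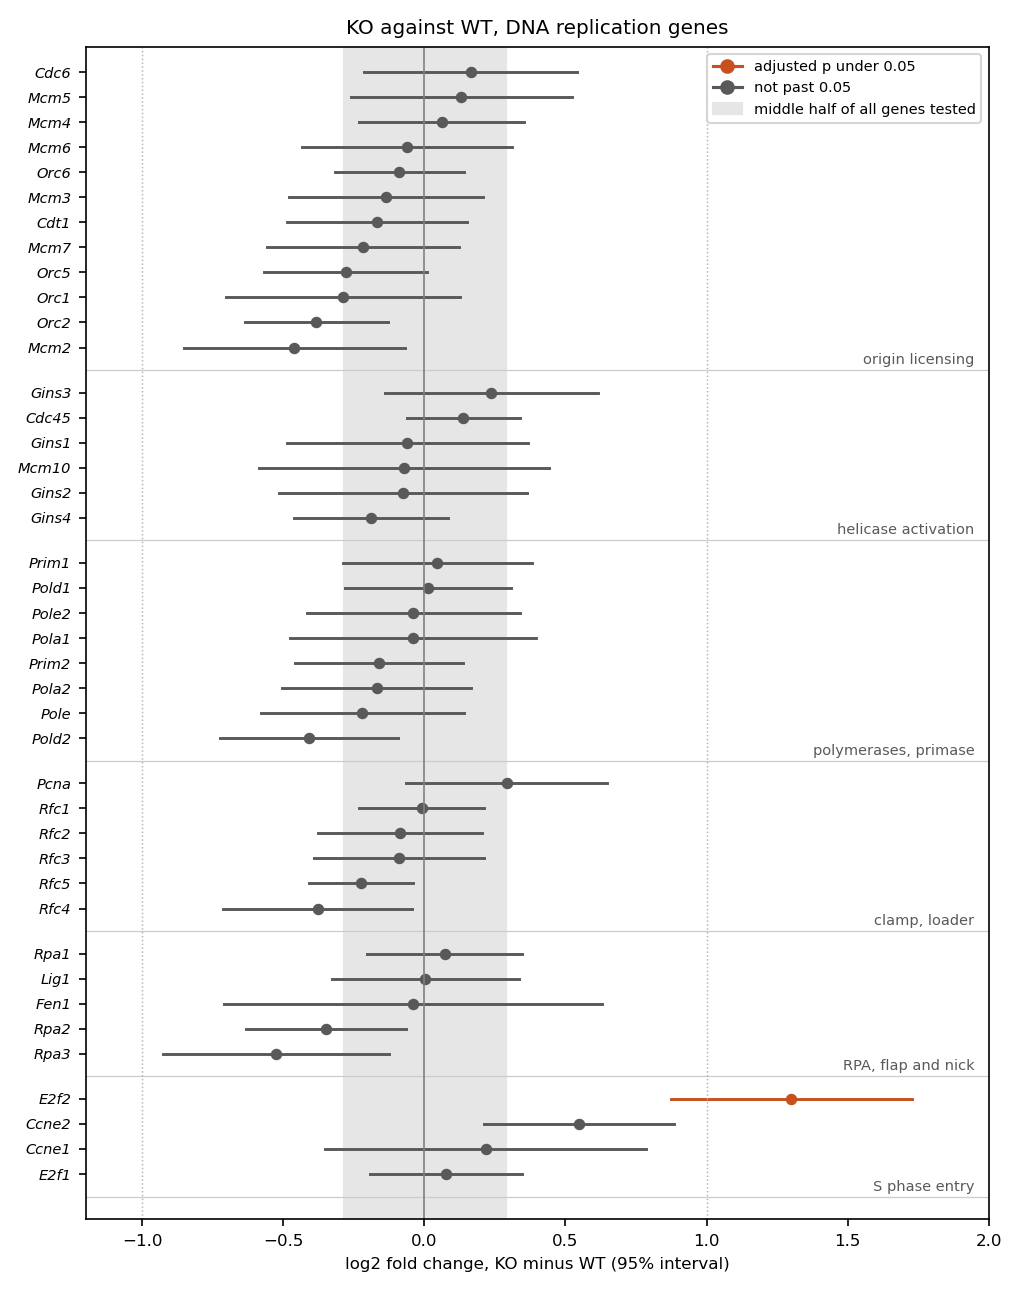
Log2 fold change, knockout minus wild-type, of each replication gene with its 95% interval from the edgeR fit. The grey band spans the middle of all genes tested, between log2 fold changes of -0.28 and 0.29, and E2f2 at 1.30 is the single gene drawn as past the threshold.

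E2f2 encodes an activator of the E2F family and was also the replication gene with the largest change. It had 159.9, 136 and 151 CPM in knockout libraries 31, 32 and 40, against 49.97, 79.8 and 51.9 CPM in wild-type libraries 25, 27 and 29. Every knockout library was above every wild-type library, and the lowest knockout library was well above wild-type library 27, the highest of its group. The means were 149 ± 12.0 CPM in knockout and 60.5 ± 16.7 CPM in wild-type libraries (SD, n = 3 each). The difference was 2.46-fold, with a 95% interval of 1.83 to 3.31 (log2 fold change 1.30 ± 0.18 SE, edgeR adjusted p = 0.0102). It rested on 4299, 3563 and 3705 counts in the knockout libraries and 1699, 2298 and 1636 counts in the wild-type libraries, and no other annotated gene of the table overlaps E2f2. Its adjusted p stayed at or under 0.0436 in all 17 alternative settings, of which the highest value came without knockout library 40. In 1 of these settings wild-type library 25 stood alone against the 3 knockout libraries, and was assumed to vary as they do.

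E2f1, the related activator, was not called. It had 82.8, 74.3 and 61.9 CPM in knockout libraries, against 68.1, 68.9 and 70.6 CPM in wild-type libraries, and the knockout values lay on both sides of the wild-type range (log2 fold change 0.08 ± 0.12 SE, edgeR adjusted p = 0.720). Per kilobase of gene length, E2f2 was at 30.6 ± 2.46 CPM in knockout and 12.4 ± 3.42 CPM in wild-type libraries, while E2f1 was at 23.1 ± 3.33 CPM in knockout and 21.9 ± 0.394 CPM in wild-type libraries (SD, n = 3 each). By this per-length level E2f2 was above E2f1 in knockout libraries and below it in wild-type libraries.

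Cyclin E activates CDK2 at the start of S phase and is encoded by Ccne1 and Ccne2. Ccne2 had 42.3, 31.6 and 31.7 CPM in knockout libraries 31, 32 and 40, against 22.6, 25.3 and 24.5 CPM in wild-type libraries 25, 27 and 29. The groups did not overlap, with knockout library 31 well above the other libraries. The log2 fold change was 0.55 ± 0.15 SE, and the edgeR adjusted p of 0.0574 did not pass. It passed in DESeq2 (adjusted p = 0.0128) and in edgeR with no filter on low counts (adjusted p = 0.0308). Ccne2 overlaps Ints8 on the other strand over 5622 bases, and since no source says whether reads were counted by strand, reads of the pair may not be separated. Ccne1 averaged 27.8 ± 6.61 CPM in knockout and 23.9 ± 6.88 CPM in wild-type libraries (SD, n = 3 each), and its groups overlapped.

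The E2F motif is shared by many of these genes, and the windows around it show which of them carry it. Promoters were taken from RefSeq on the GRCm38.p6 build, from 250 bases before to 50 bases after each gene's start, and 33 of the 41 genes had an entry. The letters TTTCCCGC, TTTCGCGC, TTTGGCGC or TTTGCCGC stood on either strand in 14 of these 33 genes (42.4%). They stood in 503 of the 10719 tested genes with a promoter (4.69%) and in 2.6% of all 27025 genes with one. A gene with several promoters counted if any of them held the letters. The genes were Orc1, Cdc6, Cdt1, Mcm3, Mcm5, Mcm6 and Mcm7 of origin licensing, Gins3, Pola1, Pold1, Pole2, Rfc3, Lig1 and E2f2. Among 18 mitosis genes with a promoter entry, 1 held the motif (5.56%). Windows are printed 5′ to 3′ on the gene's strand, with the E2F letters in capitals and joined where matches on both strands overlap. They are shown for E2f2, the gene that rose, and for licensing genes with an upstream match, which did not. E2f2 had 2 promoter entries, and its match belongs to a single start.
E2f2, chr4:136172302-136172323, plus strand, match starting 39 bases after the gene's start: gcggcatatagTTTGGCGCtaa
Orc1, chr4:108579397-108579453, plus strand, 27 bases before the start: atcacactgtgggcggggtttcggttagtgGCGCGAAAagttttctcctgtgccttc
Cdc6, chr11:98907983-98908050, plus strand, 138 bases before the start: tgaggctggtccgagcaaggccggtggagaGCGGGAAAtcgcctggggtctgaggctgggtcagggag
Mcm5, chr8:75109326-75109397, plus strand, 153 bases before the start: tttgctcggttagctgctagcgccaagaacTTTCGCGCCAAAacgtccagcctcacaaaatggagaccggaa
Mcm6, chr1:128359774-128359845, minus strand, 110 bases before the start: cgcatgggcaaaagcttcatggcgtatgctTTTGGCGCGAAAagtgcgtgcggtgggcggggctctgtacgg
Mcm6, chr1:128359715-128359782, minus strand, 47 bases before the start: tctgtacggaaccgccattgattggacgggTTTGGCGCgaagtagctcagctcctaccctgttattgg
Mcm7, chr5:138172011-138172078, minus strand, 165 bases before the start: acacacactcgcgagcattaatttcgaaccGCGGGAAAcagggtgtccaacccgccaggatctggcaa

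The 13 motif-bearing replication genes other than E2f2 had log2 fold changes between -0.29 and 0.24, with a median of -0.04, and none passed the test. The 19 replication genes whose window lacks the letters had a median of -0.09. Over all 503 tested genes with the motif the median log2 fold change was -0.05, with 19 called higher and 19 called lower. Among 10219 tested gene entries whose promoter lacks the motif, the median was -0.0091, with 636 called higher and 359 called lower. The CCAAT letters bound by NF-Y stood in a promoter of 63.6% of the replication genes with an entry and of 43.2% of such tested genes. The E-box CACGTG, which MYC and MAX can bind, stood in a promoter of 15.2% of these replication genes and 11.5% of these tested genes. A match is a description of the letters and not a shown binding site, and its absence says only that the letters are not in this window.

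**Figure D3:**
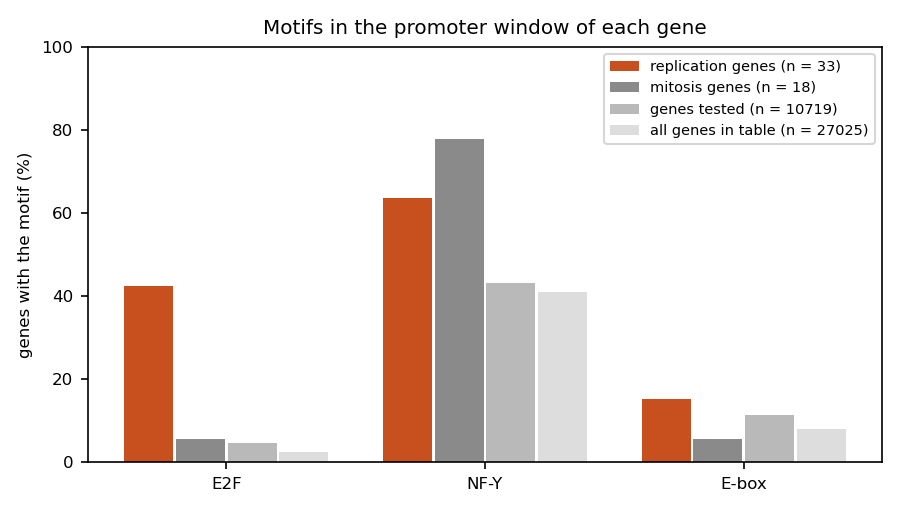
Share of genes, in percent, whose promoter window of 300 bases holds the E2F, NF-Y or E-box letters, for the replication genes, the other gene lists and the tested genes named in the legend. The E2F bar is 42.4% for replication genes and 4.69% for genes tested.

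None of the 12 licensing genes passed the test, where 8.57% of all genes did (median log2 fold change -0.15). Mcm6, Mcm5, Mcm7, Mcm3 and Mcm2 had the highest mean CPM of the 41 genes, and Pcna came next. MCM2 to MCM7 form the ring-shaped core of the replicative helicase. Mcm6 had 440.0, 381 and 284 CPM in knockout libraries 31, 32 and 40, against 385, 349 and 419 CPM in wild-type libraries 25, 27 and 29. Mcm5 had 383, 296 and 253 CPM in knockout libraries, against 283, 243 and 325 CPM in wild-type libraries. In both genes knockout library 31 was the highest of the 6 libraries and the groups overlapped. Mcm7 had 318, 274 and 226 CPM in knockout libraries, against 307, 281 and 364 CPM in wild-type libraries. Mcm3 had 329.9, 268 and 225 CPM in knockout libraries, against 313, 267 and 325 CPM in wild-type libraries. Both again overlapped, with knockout library 40 lowest. The log2 fold changes of these 4 genes lay between -0.22 for Mcm7 and 0.13 for Mcm5, and that of Mcm4 was 0.06. Per kilobase, the 6 ring subunits were at between 33.8 CPM for Mcm2 and 78.9 CPM for Mcm6 in knockout libraries, and at between 46.6 CPM for Mcm2 and 82.4 CPM for Mcm6 in wild-type libraries.

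Of the ring genes, Mcm2 had the log2 fold change farthest from 0. It had 279.8, 238 and 188 CPM in knockout libraries 31, 32 and 40, against 276, 315 and 381 CPM in wild-type libraries 25, 27 and 29. Wild-type library 25 lay among the knockout libraries, and the difference did not pass (log2 fold change -0.46 ± 0.17 SE, edgeR adjusted p = 0.131). Rpa3, the smallest subunit of the single-strand binding protein RPA, had 18.7, 16.9 and 17.5 CPM in knockout libraries, against 19.5, 28.2 and 28.7 CPM in wild-type libraries. Here too wild-type library 25 was close to the knockout libraries and 27 and 29 were apart (log2 fold change -0.53 ± 0.17 SE, edgeR adjusted p = 0.101). Both genes are on chromosome 6. The 393 chromosome 6 genes with a mean log2 CPM over 4 had a median log2 difference of 0.36 between wild-type libraries 27 and 29 and the remaining 4 libraries, against -0.02 for 7858 genes elsewhere. The same difference was 0.51 for Mcm2 and 0.64 for Rpa3. Against wild-type library 25 alone the log2 fold changes were -0.24 for Mcm2 and -0.15 for Rpa3, given as values with no test, since that arm holds 1 library.

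The loading factors of the MCM ring had lower levels than the ring itself. Orc2, a subunit of the origin recognition complex, had 41.5, 38.0 and 34.3 CPM in knockout libraries 31, 32 and 40, against 52.4, 49.2 and 46.8 CPM in wild-type libraries 25, 27 and 29. The groups did not overlap, but the difference missed the threshold in edgeR (log2 fold change -0.38 ± 0.11 SE, adjusted p = 0.0703) and passed in DESeq2 (adjusted p = 0.0331). Orc1 and Orc5 were also lower in each knockout library than in any wild-type library, with log2 fold changes of -0.29 and -0.28 that did not pass. Orc6 overlapped between groups. Of the subunit genes outside the 41, Orc4 went the other way, higher in each knockout library than in any wild-type library. Its log2 fold change of 0.22 did not pass (edgeR adjusted p = 0.297), and Orc3, at -0.06, overlapped between groups. Orc2 overlaps Nif3l1 on the other strand over 19046 bases. The origin recognition genes measured here spread widely per kilobase, from 2.83 CPM for Orc1 to 17.4 CPM for Orc6 in knockout libraries and from 3.46 CPM for Orc1 to 18.5 CPM for Orc6 in wild-type libraries. Cdc6 had log2 fold change 0.16 and Cdt1, its partner in loading, -0.17. Both overlapped between groups.

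The 6 helicase activation genes had 0 calls, where 8.57% of all genes were called, and a median log2 fold change of -0.07. Their summed level was 252 ± 39.0 CPM in knockout and 251 ± 13.7 CPM in wild-type libraries (SD, n = 3 each). Cdc45, which joins MCM2-7 and GINS in the active helicase, had 96.1, 91.9 and 85.8 CPM in knockout libraries, against 85.2, 80.2 and 83.4 CPM in wild-type libraries. The 3 knockout values were all above the wild-type values, by a small margin (log2 fold change 0.14 ± 0.09 SE, edgeR adjusted p = 0.345). The 4 GINS subunits had log2 fold changes from -0.19 for Gins4 to 0.24 for Gins3. Mcm10, which helps to start the fork, ranged from 47.7 to 90.9 CPM in knockout libraries and from 63.9 to 78.6 CPM in wild-type libraries.

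The polymerase and primase genes gave 0 calls among 8, where 8.57% of all genes were called, with a median log2 fold change of -0.10. Pold2, the second subunit of polymerase delta, had 63.3, 55.5 and 43.4 CPM in knockout libraries 31, 32 and 40, against 72.8, 71.6 and 71.0 CPM in wild-type libraries 25, 27 and 29. All knockout values lay below the narrow wild-type range, with library 40 lowest (log2 fold change -0.41 ± 0.14 SE, edgeR adjusted p = 0.105), and the difference passed only with no filter on low counts among the settings run (adjusted p = 0.0420). Pold1, the catalytic subunit of the same polymerase, had a log2 fold change of 0.01 and overlapping groups. Pole and Pole2, of polymerase epsilon, were at -0.22 and -0.04. Pola1 and Pola2, of polymerase alpha, were at -0.04 and -0.17, and Prim1 and Prim2, the primase subunits, were at 0.04 and -0.16.

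Pcna was the most abundant clamp gene. It had 286, 245 and 266 CPM in knockout libraries 31, 32 and 40, against 206, 176 and 269 CPM in wild-type libraries 25, 27 and 29. Wild-type library 29 lay within the knockout range, and the difference did not pass (log2 fold change 0.29 ± 0.15 SE, edgeR adjusted p = 0.269). None of the 5 loader genes passed, where 8.57% of all genes did. Rfc4 and Rfc5 were lower in each knockout library than in any wild-type library, with log2 fold changes of -0.38 and -0.23, while Rfc1, Rfc2 and Rfc3 lay between -0.09 and -0.01 with overlapping groups. Rfc4 overlaps Eif4a2, a far more abundant gene, on its other strand. Rpa2 was at 54.0 ± 6.17 CPM in knockout and 68.7 ± 7.53 CPM in wild-type libraries (SD, n = 3 each), without overlap and without passing (log2 fold change -0.35 ± 0.12 SE, edgeR adjusted p = 0.118). Rpa1, the large subunit, was at 0.07 and Lig1, the replicative DNA ligase, at 0.00. Fen1, the flap nuclease, had the fewest counts, 903 over the 6 libraries, so its interval was the widest on the log2 scale, from 0.611-fold to 1.55-fold, and it overlaps Tmem258 on the other strand.

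The groups did not overlap in 11 of the 41 genes. In 8 genes all knockout libraries were lower (19.5%, against 16.5% of all genes): Orc1, Orc2, Orc5, Pold2, Rfc4, Rfc5, Rpa2 and Rpa3. In 3 genes all were higher (7.32%, against 17.2% of all genes): E2f2, Ccne2 and Cdc45. Both shares together, 26.8%, were below the 33.7% of all genes. The 37 genes other than the 4 regulators gave 0 calls in edgeR and had a median log2 fold change of -0.09. At an unadjusted p under 0.05 they held 7 genes, and DESeq2 called 1, Orc2. Over all genes tested, edgeR called 8.57% and DESeq2 16.3%, and 26.9% had an unadjusted p under 0.05 in edgeR.

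The spread between knockout libraries was larger than the difference between groups. Replication genes took 0.463%, 0.407% and 0.321% of all counts in knockout libraries 31, 32 and 40, against 0.448%, 0.416% and 0.460% in wild-type libraries 25, 27 and 29. Summed CPM was 4132 ± 613 in knockout and 4238 ± 344 in wild-type libraries (SD, n = 3 each), a ratio of 0.975, whereas knockout library 31 was 1.35 times knockout library 40. Library 40 was the lowest of the 6 in 29 genes (70.7%, against 24.2% of all genes) and library 31 the highest of the 6 in 24 genes (58.5%, against 15.3%). The order 40 below 32 below 31 held in 31 genes (75.6%, against 17.8%). Licensing genes showed it most, with sums of 2275, 1921 and 1580 CPM in knockout libraries 31, 32 and 40, against 2062, 1916 and 2311 CPM in wild-type libraries 25, 27 and 29. Clamp genes showed it least among the 5 machinery roles, library 31 being 1.13 times library 40. E2f2 did not follow this order, since its knockout library 40 was above 32. The median coefficient of variation of the 41 genes was 16.8% in knockout and 10.3% in wild-type libraries, beside 15.6% in knockout and 15.3% in wild-type libraries over all genes. The median log2 fold change of the 41 genes turned to 0.07 without knockout library 40 and moved to -0.21 without knockout library 31, so 1 library decides its sign. Library 40 also had the highest sum of mature neutrophil markers, 17136 CPM, against 11044 and 9640 CPM in knockout libraries 31 and 32. Their part in its low replication genes was not tested.

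**Figure D4:**
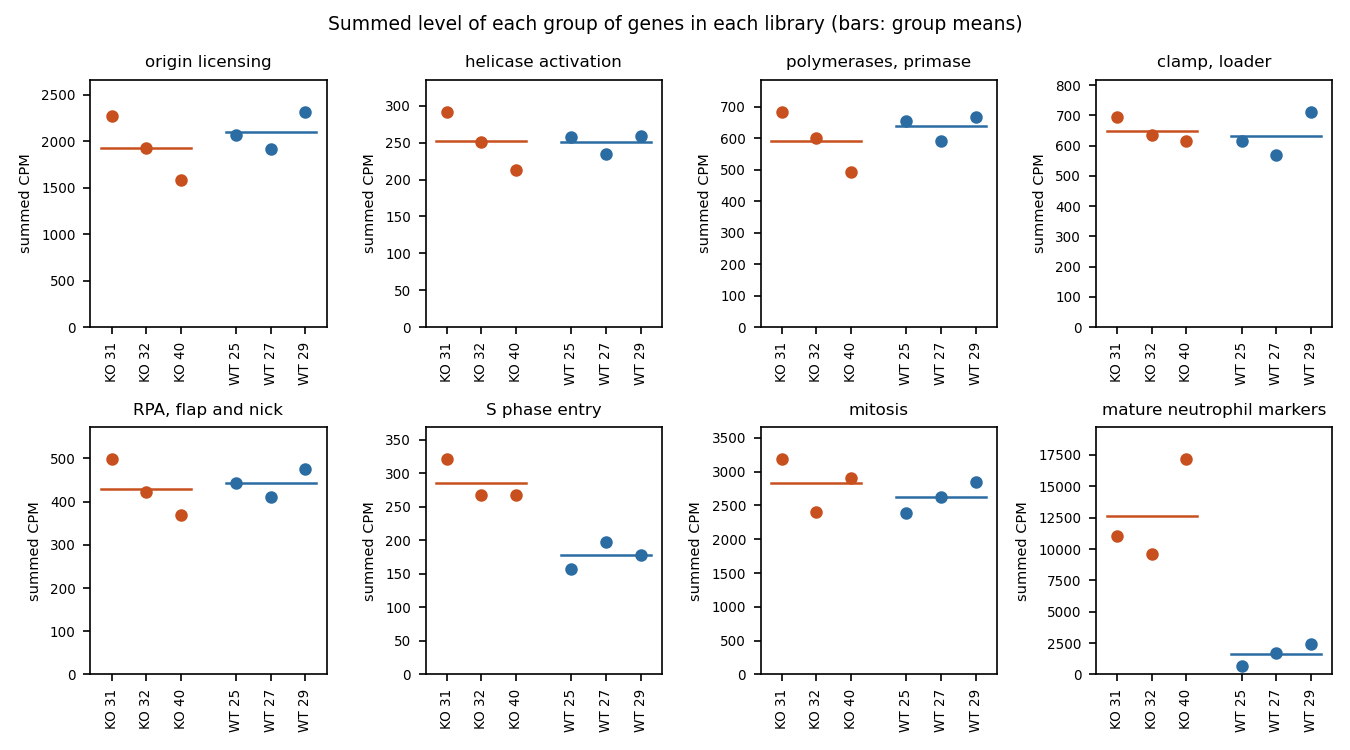
Summed CPM of each group of replication genes and of the compared gene lists in each library, with knockout libraries on the left, wild-type libraries on the right and horizontal bars at group means. Licensing genes lie at 2275, 1921 and 1580 CPM in knockout libraries 31, 32 and 40, while S phase entry regulators lie at 267 to 320.2 CPM in knockout and 158 to 198 CPM in wild-type libraries. Of the regulators' mean sums, 285 CPM in knockout and 178 CPM in wild-type libraries, E2f2 alone made 149 and 60.5 CPM. E2f1 and Ccne1 overlapped between groups, and Ccne2 did not.

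Of 34 other replication factors, which work beside the 41 genes, 0 passed in either direction, with a median log2 fold change of -0.05. The 2 with the smallest p were Pole4, a small polymerase epsilon subunit that lies on chromosome 6, at -0.35 (edgeR adjusted p = 0.0697), and Supt16, a subunit of the histone chaperone FACT, at -0.30 (edgeR adjusted p = 0.119). Of 14 genes of nucleotide supply, 0 passed. The smallest p belonged to Dck, which phosphorylates salvaged deoxycytidine, at 0.44 (edgeR adjusted p = 0.0556), and Samhd1, which degrades dNTPs, at 0.71 (edgeR adjusted p = 0.0562). The 10 genes of the S phase checkpoint gave 0 calls, led by Atr at -0.35 and Hus1 at -0.29, and the MCM paralogs Mcm8 and Mcm9 were at -0.28 and -0.11. Of these 4 lists without a call in edgeR, DESeq2 called 1 other replication factor (Pole4) and 2 nucleotide genes. At an unadjusted p under 0.05 they held 6, 5, 1 and 0 genes. Over all genes tested, edgeR called 8.57% and DESeq2 16.3%, and 26.9% had an unadjusted p under 0.05 in edgeR. The lists of 10 and 2 genes would hold few calls at these shares, and no list was tested as a set.

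Genes of mitosis, which mark cycling cells later in the cycle, gave 0 calls among 20 and a median log2 fold change of 0.03. Their sums were 3179, 2407 and 2905 CPM in knockout libraries 31, 32 and 40, against 2395, 2617 and 2849.9 CPM in wild-type libraries 25, 27 and 29. By this sum knockout library 40, the lowest for most replication genes, was above every wild-type library, narrowly so for library 29. Mki67 alone gave 741 CPM of the sum in knockout library 40 and 526 CPM in wild-type library 29. That gap is larger than the gap between the 2 sums, so the order of these libraries rests on Mki67. The proliferation marker Mki67 had the smallest p, at 0.41 ± 0.13 SE (edgeR adjusted p = 0.0881), and Mybl2, an E2F-regulated factor of mitotic genes, was next at -0.26. At an unadjusted p under 0.05 the list held 2 genes, and DESeq2 called Mki67. Over all genes tested these shares were 26.9% and 16.3%, and edgeR called 8.57%.

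Of the 27 RB-E2F and G1/S control genes, 3 rose and 4 fell (25.9%, against 8.57% of all genes tested), with a median log2 fold change of 0.01. This list too was chosen with earlier results of these data known, so its share of calls is a description and no test. Ccnd3, a D-type cyclin of myeloid and lymphoid cells, had 385, 291 and 353 CPM in knockout libraries 31, 32 and 40, against 159, 179 and 166 CPM in wild-type libraries 25, 27 and 29. Cdk6, the kinase that D-type cyclins activate and a dependency of MLL-rearranged leukemia, had 672, 755 and 541 CPM in knockout libraries, against 1360.0, 1323 and 1227 CPM in wild-type libraries. Neither pair of groups came near to overlapping. Ccnd3 rose by a log2 fold change of 1.03 ± 0.12 SE (edgeR adjusted p = 0.00498) and Cdk6 fell by 0.99 ± 0.13 SE (edgeR adjusted p = 0.00802), and both stayed past the threshold in all 17 alternative settings.

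Of the 4 genes for INK4 inhibitors of CDK4 and CDK6, 1 rose and 1 fell, where 5.45% of all genes tested rose and 3.12% fell. These 4 were set apart after values were seen, so the count is a description and no test. Cdkn2c, which encodes p18, had 244, 197 and 262 CPM in knockout libraries, against 144, 150.3 and 148 CPM in wild-type libraries, and rose (log2 fold change 0.67 ± 0.12 SE, edgeR adjusted p = 0.0178). Cdkn2a, which encodes p16 and ARF, had 4.43, 8.14 and 7.07 CPM in knockout libraries, against 21.6, 13.8 and 19.2 CPM in wild-type libraries, and fell (log2 fold change -1.48 ± 0.27 SE, edgeR adjusted p = 0.0211). Cdkn2d, at 0.79 (edgeR adjusted p = 0.0548), and Cdkn2b, at -0.28 (edgeR adjusted p = 0.689), did not pass, and are named here after their values were seen. The other called genes, also named after their values were seen, were Ccnd2, which fell (-2.22, on chromosome 6), Tfdp2, a dimerization partner of E2F, which fell (-0.59), and Cdc25a, a phosphatase that activates CDK2, which rose (0.60). With each library left out in turn the list had 1 to 4 genes higher and 1 to 4 lower. Without knockout library 40, Ccnd3 and Cdk6 alone passed. Over all alternative settings the log2 fold changes of the called genes that did not always pass kept their sign, 0.54 to 0.78 for Cdkn2c, 0.47 to 0.68 for Cdc25a, -1.74 to -1.26 for Cdkn2a, -0.72 to -0.54 for Tfdp2 and -2.51 to -1.45 for Ccnd2. The remaining E2F genes did not pass, from -0.44 for E2f5 to 0.25 for E2f7. Myc, a regulator of G1 progression, had 187, 226 and 159 CPM in knockout libraries, against 223, 256 and 293 CPM in wild-type libraries, which overlap narrowly (log2 fold change -0.43 ± 0.15 SE, edgeR adjusted p = 0.115).

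**Figure D5:**
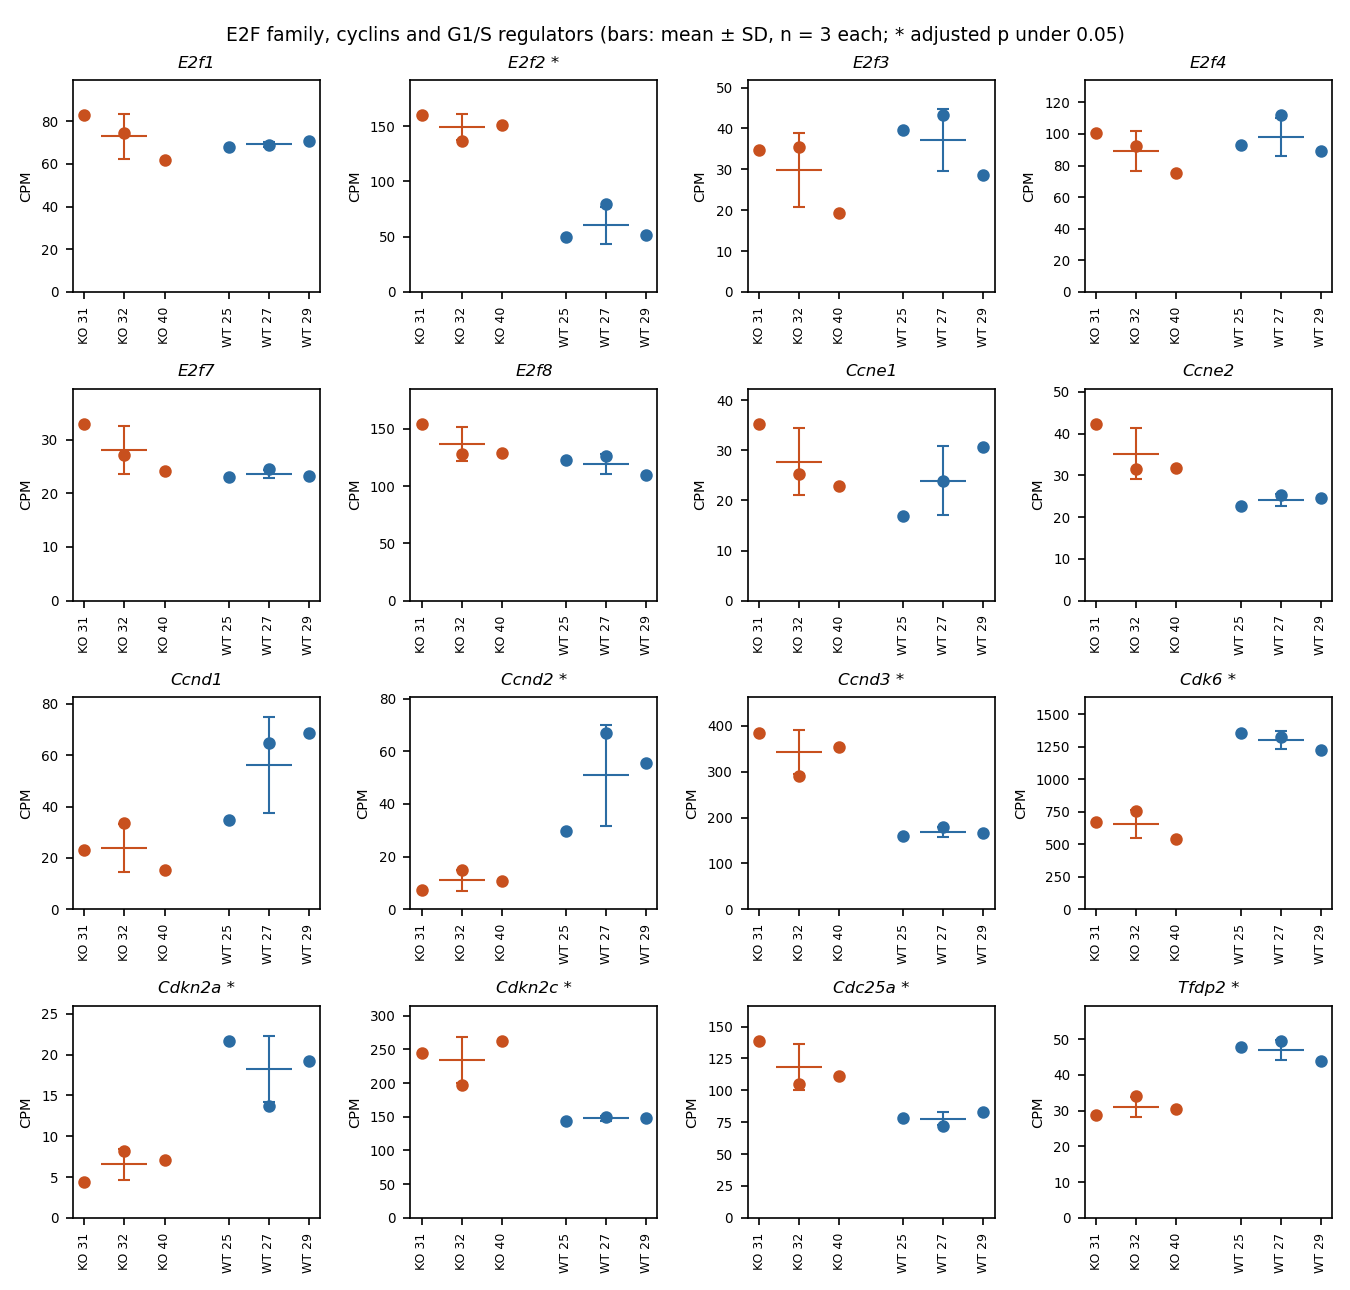
CPM of E2F genes, cyclins and other G1/S regulators in each library, with knockout libraries on the left and wild-type libraries on the right, mean and SD of 3 libraries as bars, and an asterisk for an edgeR adjusted p under 0.05. E2f2 and Ccnd3 lie higher and Cdk6 lower in every knockout library, while E2f1 overlaps between groups.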

How the data were processed

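The authors deposited a table of read counts per gene for 6 libraries, whose values are whole numbers. The submitters' processing notes name Salmon, limma, GRCm38 and mm10, with no role given; no source says whether reads were counted by strand. Start positions in the table match those of a GRCm38 annotation for 2.85% of 52073 shared genes, so its coordinates are not printed, and promoters were matched by gene symbol.

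Genes were kept by filterByExpr (minimum count 10, minimum total 15), scaled by TMM, and tested with the robust quasi-likelihood test of edgeR 4.0.16 in R 4.3.3 over 15963 genes, with Benjamini-Hochberg adjustment and a threshold of 0.05. CPM values use TMM-scaled library sizes, and values per kilobase use the table's gene length. Standard errors and 95% intervals come from that fit. No pair of replicates agreed within sampling noise (lowest chi-square per degree of freedom 39.3). Alternatives covered scaling, filters, shrinkage, DESeq2 1.42.0, limma-voom (limma 3.58.1), and libraries or chromosomes left out, and the fit was tested on simulated data. It recovered 25.4% of simulated 1.5-fold changes, 77.0% of 2-fold and 98.8% of 4-fold changes, with 4.70% of calls false. Most simulated 1.5-fold changes were thus missed. The simulation changed fewer genes than were called in the data and gave genes of like level the same spread. These shares therefore need not hold for the data or for the 41 genes. The 41 genes and the lists were chosen with earlier results of these data known. Values by library are given for genes past the threshold, the 4 largest changes, the 6 highest levels and chromosome 6, and of other lists up to 4 called genes, or the 2 with the smallest p, are named; values of further genes were added after they were seen. Of the 41 genes, 21 overlap another annotated gene, 19 of them on the other strand.

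Depth per library is given with the results. The other marker lists summed to between 3402 and 5258 CPM in knockout and between 2139 and 3511 CPM in wild-type libraries for primary granule genes. Their highest sums in knockout and in wild-type libraries were 5.10 and 2.91 CPM for erythroid, 29.7 and 29.1 CPM for B cell, 58.2 and 63.5 CPM for T and NK cell, 150.4 and 131 CPM for eosinophil, 21.2 and 13.8 CPM for megakaryocyte, and 166 and 184 CPM for stroma genes.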

Additional observations from a re-analysis of the deposited data

How the results depend on the processing

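E2f2 kept its direction and stayed past the threshold in all 17 alternatives, with log2 fold changes from 1.17 to 1.57. Leaving out each library in turn gave 245 to 787 genes higher and 102 to 440 lower over all genes, against 870 and 498 with all libraries, and 1 replication gene higher and 0 to 1 lower. The 1 lower was Rpa3 without wild-type library 25 (edgeR adjusted p = 0.0458). Without wild-type libraries 27 and 29, where the 1 remaining wild-type library borrows its spread from the knockout group, 305 were higher and 148 lower. With no filter on low counts 836 genes were lower, and 2 replication genes were higher and 1 lower (Ccne2, E2f2 and Pold2). DESeq2 called 1557 higher and 1050 lower, with 2 replication genes higher and 1 lower (Ccne2, E2f2 and Orc2). Scaling by total counts alone gave 597 higher and 682 lower, moved the median of all genes to -0.13, and put that of the replication genes at -0.19. The causes were not tested. Among the 41 genes, 50 values over 17 genes changed sign, none of them past the threshold. With upper-quartile factors Prim1 was at -0.000634, Pold1 at -0.0323 and Lig1 at -0.0421. With total counts alone Mcm4 was at -0.0572, Prim1 at -0.0729, Pold1 at -0.105, Rpa1 at -0.0453, Lig1 at -0.115 and E2f1 at -0.0413. With no filter Pold1 was at -0.00647 and Lig1 at -0.0148. With limma-voom Lig1 was at -0.00384. Without wild-type libraries 27 and 29 Mcm4 was at -0.0791, Gins1 at 0.191, Pold1 at -0.066, Rfc1 at 0.0693 and Lig1 at -0.12. Without chromosome 6 genes Lig1 was at -0.00359. With each library left out in turn the log2 fold change ranged from -0.0471 to 0.292 for Cdc6, -0.0481 to 0.153 for Mcm4, -0.0493 to 0.261 for Mcm5, -0.212 to 0.0974 for Mcm6, -0.342 to 0.13 for Mcm10, -0.204 to 0.081 for Gins1, -0.215 to 0.11 for Gins2, -0.252 to 0.103 for Pola1, -0.122 to 0.13 for Prim1, -0.0842 to 0.124 for Pold1, -0.185 to 0.0679 for Pole2, -0.0591 to 0.0696 for Rfc1, -0.179 to 0.0175 for Rfc2, -0.0394 to 0.178 for Rpa1, -0.26 to 0.145 for Fen1, -0.143 to 0.112 for Lig1 and -0.0246 to 0.185 for E2f1.
No paired analysis was possible because the numbers in the titles are not shared between the groups. With 3 libraries a group, 40 of the 41 genes have a 95% interval within 2-fold in either direction.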
